A study of Danio rerio with 12 samples.

Results

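Binding sites of p63 and Sox3 were compared in wild-type zebrafish gastrulae, in whole embryos fixed at 80% of epiboly. The sites came from 2 peak lists for p63 and a single peak list for Sox3. A p63-only site had a peak in both p63 lists and none in the Sox3 list, a shared site had a peak in all 3 lists, and a Sox3-only site had a Sox3 peak and no peak in either p63 list. Peaks that overlapped by at least 1 bp were merged into a site. The 3 lists formed 54605 merged regions, of which 25651 fell into a class: 20447 p63-only sites, 4365 shared sites and 839 Sox3-only sites. Another 28138 regions had a peak in 1 p63 list and no Sox3 peak, and 816 had a peak in 1 p63 list and in the Sox3 list. These 2 sets belong to no class. The whole series of 12 libraries covered 154315 merged regions.

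All gastrula libraries came from untreated wild-type (WT) embryos, with 2 replicates for p63 and 1 library for Sox3. The study's reporting summary states that a second Sox3 library of this stage was dropped for low quality, so no Sox3 value at this stage has a replicate. The other 9 libraries were made from WT embryos at 24 hpf (hours post fertilization; 2 p63 libraries and 1 Sox3 library), WT embryos at 36 hpf (2 p63 and 2 Sox3 libraries), and tp63 -/- embryos at 36 hpf (2 Sox3 libraries), which carry a deletion in tp63 that truncates all p63 isoforms. Each library came from a pool of whole embryos, and a site in both lists may be bound in the same cells or in different cells, which these lists cannot tell apart.

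p63, encoded by tp63, is a transcription factor of the p53 family that directs the surface ectoderm towards epidermis. Sox3 is a transcription factor of the SoxB1 group that is expressed in the neural ectoderm and is known for maintaining neural progenitors. During gastrulation the ectoderm is divided between these fates, with the neural plate border between them. ChIPmentation recovers the DNA bound by a factor with an antibody, tags it with a transposase and sequences it, and a peak marks where tags pile up above the local background of the same library. The summit of a peak is the base with the highest pileup.

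The libraries differed in depth. The tags behind the peak calls, as estimated from the lists, were 20.9 M and 25.1 M (M, megatags) for the p63 replicates and 2.75 M for Sox3, and the lists held 36652, 42668 and 6045 peaks. The study's reporting summary gives fewer uniquely mapped reads than this for both p63 replicates and more for Sox3. By its counts the gap in depth has the same direction but is smaller. The weakest Sox3 summit rested on 5 tags and the weakest p63 summits on 9 and 10. A site without a Sox3 peak may therefore be bound below the depth of the Sox3 library, and the absence of a peak was not read as the absence of binding. Strength was compared only within a list, as the percentile of a peak by −log10 q (q, the false discovery rate of the peak). Intervals given with shares are exact 95% Clopper-Pearson intervals, which cover counting error only and treat neighbouring sites as independent.

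Most Sox3 sites of the gastrula were p63 sites, while most p63 sites had no Sox3 peak. Of 6020 Sox3 sites, 72.5% (71.4 to 73.6%) had a peak in both p63 lists, 13.6% in 1 p63 list and 13.9% (13.1 to 14.8%) in neither. Of 24812 sites with a peak in both p63 lists, 17.6% had a Sox3 peak (17.1 to 18.1%). Library by library, 12.7% and 11.7% of p63 peaks overlapped a Sox3 peak (12.2% ± 0.722, SD, n = 2), and 76.1% and 81.6% of Sox3 peaks overlapped a p63 peak (78.8% ± 3.87, SD, n = 2). The share of Sox3 peaks that met p63 thus differed by several percentage points between the p63 replicates, and it was higher against the longer p63 list. Both p63 replicates were set against the same Sox3 list, so these SDs leave out variation between Sox3 libraries.

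Regions seen in a single p63 list rarely met Sox3: 2.82% of those 28954 regions had a Sox3 peak (2.63 to 3.02%). Those without a Sox3 peak had median p63 percentiles of 27.8 and 29.2 (replicates 1 and 2), against 60.9 and 65.4 at p63-only sites. The part of p63 rank in this share was not tested. Among the 816 Sox3 sites that met only 1 p63 list, 248 met replicate 1 and 568 met replicate 2, the deeper library. The shares depend on the unequal lengths of the lists. With each list limited to its 6045 strongest peaks, 1012 sites were shared, 22.1% of the p63 sites and 16.8% of the Sox3 sites, and 4233 sites were Sox3-only.

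Shared sites ranked higher than p63-only sites in both p63 libraries. The median percentile was 73.2 at shared and 60.9 at p63-only sites in replicate 1, and 78.9 against 65.4 in replicate 2, a difference of 12.9 percentile points ± 0.883 (SD, n = 2). Its size depended on the setting: it was 29.6 points without replicate 1 and 25.5 points without replicate 2, 1.99 points among peaks with a −log10 q of at least 10, and -1.52 points with lists of equal length. Median fold enrichment, the ratio of the summit pileup to the local background, differed little, with 6.63 against 6.27 in replicate 1 and 6.64 against 6.22 in replicate 2. Summit pileups had medians of 25 tags at shared and 21 tags at p63-only sites in replicate 1, and of 31 and 24 tags in replicate 2. The local background moved with the class too: its median was 2.90 tags at shared and 2.37 tags at p63-only sites in replicate 1, and 3.64 and 2.98 tags in replicate 2. Its part in the difference was not tested.

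The share of p63 sites with a Sox3 peak did not rise steadily with p63 strength. It rose from 9.0% of sites in the lowest 10-point bin of p63 percentile to 26.8% between percentiles 80 and 90 in replicate 1, then was 19.7% in the top bin (18.4 to 21.0%). In replicate 2 the same bins held 7.63%, 28.7% and 21.7% (20.5 to 23.0%). The intervals of the bin from 80 to 90 and of the top bin did not overlap in either library. With sites ordered by the mean of both percentiles and cut into 10 equal bins, the share was 7.05% in the lowest bin, 29.1% in the eighth, 27.0% in the ninth and 17.9% in the highest. By mean rank, the strongest p63 sites thus met Sox3 about as often as p63 sites in general.

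**Figure D1:**
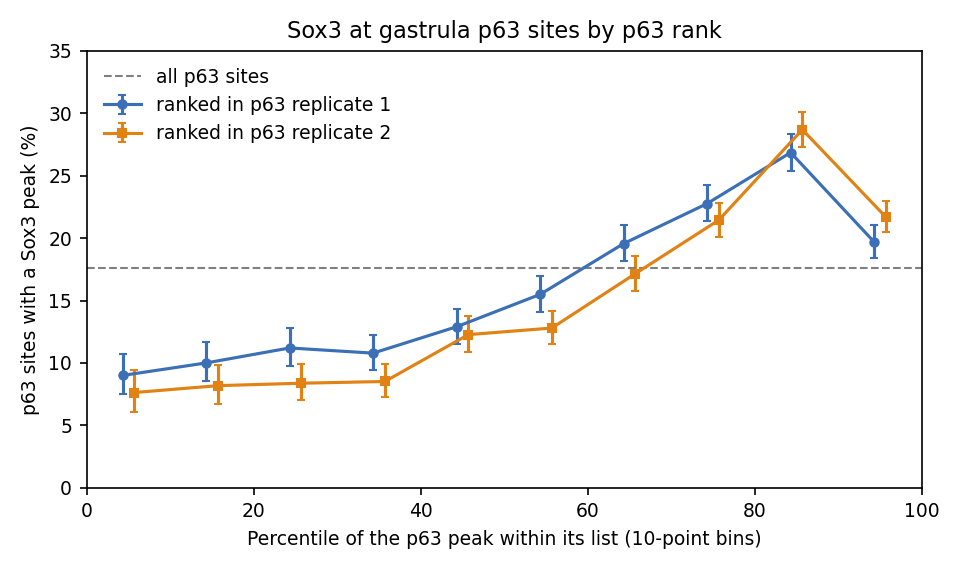
Share of gastrula p63 sites with a Sox3 peak (%, vertical axis) by the percentile of the p63 peak within its list (horizontal axis, 10-point bins), ranked in p63 replicate 1 (circles) and replicate 2 (squares), with 95% Clopper-Pearson intervals. In both replicates the share was highest between percentiles 80 and 90 (26.8% and 28.7%) and lower in the top bin (19.7% and 21.7%). The dashed line marks the 17.6% of all p63 sites.

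Where the strongest p63 sites did carry Sox3, its peaks were strong. Among shared sites in the top bin of p63 percentile, the median Sox3 percentile was 77.7 by replicate 1 and 76.2 by replicate 2. Among those in the lowest bin it was 44.5 and 39.7. Over the 4365 shared sites, Spearman's rho between p63 and Sox3 percentiles was 0.274 and 0.283, against 0.694 between the p63 replicates at the same sites. These are descriptions across sites, which share the chromatin around them and each library's depth.

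The strength of a Sox3 peak went with the presence of p63 in one direction through most of the list. In the lowest 10-point bin of Sox3 percentile, 48.8% of 594 sites were shared and 32.5% were Sox3-only. In the top bin, 95.7% of 603 sites were shared and 0.829% were Sox3-only, which is 5 sites. All 61 sites in the top 1% of the Sox3 list were shared, which allows a share of at least 94.1% by the exact interval. The median Sox3 percentile was 58.3 at shared and 26.7 at Sox3-only sites, a difference of 31.6 points from 1 library. Sox3-only summits rested on a median of 9 tags, against 14 at shared sites, over local backgrounds of 0.499 and 0.889 tags.

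**Figure D2:**
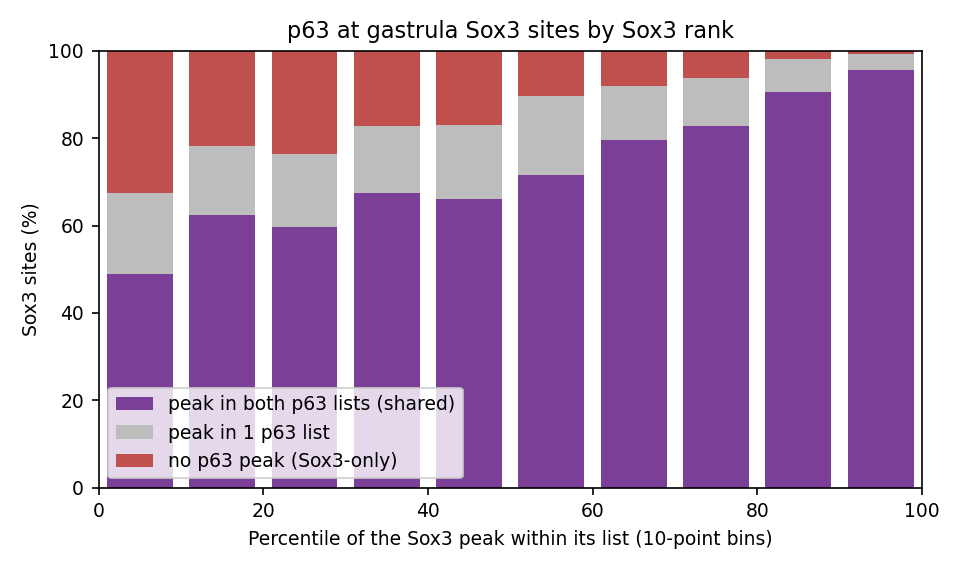
Composition of gastrula Sox3 sites (%, vertical axis) by the percentile of the Sox3 peak within its list (horizontal axis, 10-point bins): sites with a peak in both p63 lists, in 1 p63 list or in none. Sox3-only sites made up 32.5% of the lowest bin and 0.829% of the top bin, while shared sites rose from 48.8% to 95.7%.

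Shared sites were wider than p63-only sites in every list that measured them. The median width of the p63 peak was 251 bp at shared and 190 bp at p63-only sites in replicate 1, and 289 bp against 217 bp in replicate 2. Sox3 peaks had a median width of 215 bp at shared and 166 bp at Sox3-only sites. The merged sites measured 346 bp (shared), 254 bp (p63-only) and 166 bp (Sox3-only), but a shared site is the union of at least 3 peaks, so its width is partly set by its definition. Width grows with rank in these lists, so the classes were also compared at like rank. Between percentiles 80 and 90, p63 peaks were 287 bp wide at shared and 242 bp at p63-only sites in replicate 1, and 316 bp against 265 bp in replicate 2. At the same ranks the fold enrichment was lower at shared sites, with 7.86 against 8.40 in replicate 1 and 7.54 against 8.03 in replicate 2. The gap in width varied between bins, and in no bin was the median narrower at shared sites. In the top bin it was 380.5 bp against 353 bp in replicate 1 and 398 bp against 383 bp in replicate 2. Between percentiles 10 and 20 of replicate 2 both classes had 149 bp. A wider p63 peak is also more likely to overlap a Sox3 peak by 1 bp. When a shared site was required to have summits within 100 bp, 3579 sites were shared and 16.0% of p63 sites had Sox3.

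The summits of both factors lay close together at shared sites. A shared site is made of overlapping peaks, so its definition already limits how far apart its summits can lie. The median distance between the strongest p63 summit and the strongest Sox3 summit was 47 bp for p63 replicate 1 and 46 bp for replicate 2 (46.5 bp ± 0.707, SD, n = 2). Both values use the same Sox3 summits, so this SD leaves out variation between Sox3 libraries. The p63 replicates lay a median of 36 bp from each other at the same sites and 31 bp at p63-only sites. The distance between factors was therefore about 10 bp above the distance between 2 libraries of the same factor. Sox3 summits at these sites rested on fewer tags, a median of 14 against 25 and 31 for the p63 replicates. The part of this in the 10 bp was not tested. Within 100 bp lay 80.8% and 81.4% of the p63 and Sox3 summit pairs, against 86.1% of the p63 replicate pairs. Within 50 bp these shares were 53%, 54.0% and 62.2%.

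The distance was shorter where Sox3 was stronger. In the weakest of 4 equal bins of Sox3 percentile the median was 58 bp to each p63 replicate, and in the strongest it was 42 bp and 41 bp. The distance between the p63 replicates also shortened over these bins, from 40 bp to 33 bp. At 3763 shared sites (86.2%) a Sox3 summit fell inside a peak of both p63 lists, and at 161 (3.69%) it fell inside no p63 peak. Both p63 summits lay over 100 bp from the Sox3 summit at 431 sites (9.87%), and at 366 of these (84.9%) the p63 replicates lay within 100 bp of each other.

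**Figure D3:**
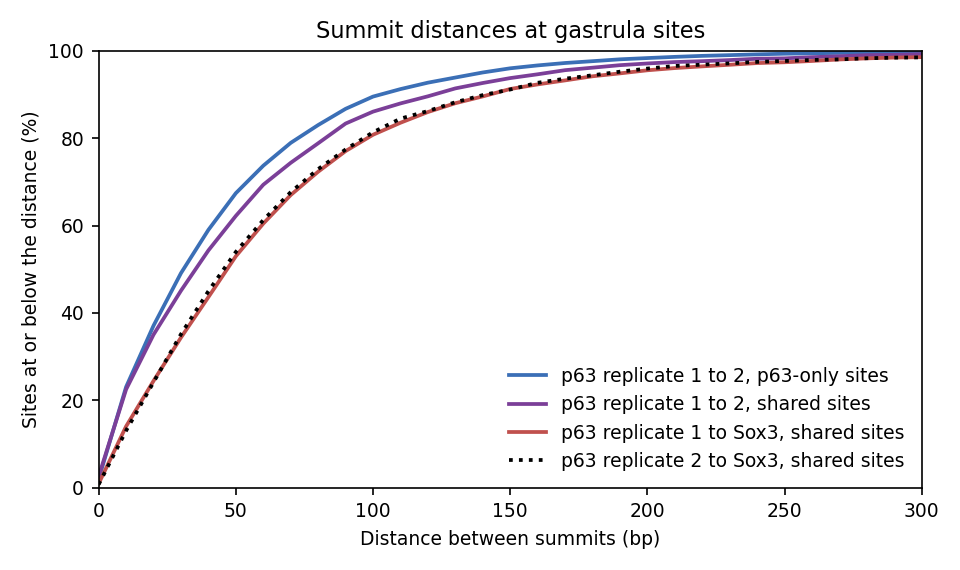
Cumulative share of sites (%, vertical axis) by the distance between the strongest summits of 2 lists (bp, horizontal axis), for the p63 replicates at p63-only and shared sites and for each p63 replicate against Sox3 at shared sites. Both curves against Sox3 lie over each other and below the replicate curves, with 80.8% and 81.4% of sites within 100 bp against 86.1% for the replicates at shared sites.

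Named sites were chosen by rank within their class and are given by position in GRCz10. The strongest p63-only site lay at chr5:65165729-65166214, with 126 and 139 tags at its summits in replicates 1 and 2 and a fold enrichment of 18.8 and 16.3. The next was chr6:57700212-57700829, with 120 and 134 tags and a fold enrichment of 17.2 and 16.1. Then came 2 sites on chromosome 9, chr9:14017506-14017944 with a fold enrichment of 21.4 and 19.1, and chr9:46963028-46963636 with 19.4 and 17.7. All 4 had a p63 peak in all 4 later p63 lists. The Sox3 lists differed among them: chr9:14017506-14017944 had no Sox3 peak in any of the 5 later Sox3 lists, while chr6:57700212-57700829 had one in 3 of them.

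The strongest shared site, chr17:53292602-53292893, had a fold enrichment of 28.3 and 27.7 for p63 and 32.8 for Sox3, and its Sox3 summit lay 0 bp and 5 bp from the p63 summits. At chr20:4437676-4438038 the values were 32.6 and 28.3 for p63 and 31.9 for Sox3. At chr14:19788730-19789426 they were 9.98, 10.2 and 10.2, over a local background of 13.5 and 12.4 tags in the p63 libraries, several times the class median. The fourth was chr7:59229928-59230490, with 16.3, 15.8 and 15.7. Fold enrichment is not scaled between the p63 and Sox3 libraries, so these values do not compare the factors. Each of the 4 sites had a peak in all 9 later lists, with both antibodies and in both genotypes, and whether such sites carry signal that is specific to either antibody was not tested. Over the whole class, 204 shared sites (4.67%) had a peak in all 9 later lists, against 347 p63-only sites (1.70%) and 1 Sox3-only site. Without them, 17.2% of p63 sites had Sox3 and the median summit distance was 46.5 bp.

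The strongest Sox3-only sites ranked lower in the Sox3 list than the strongest shared sites. The first, chr12:6431839-6432099, stood at percentile 93.5 with 24 tags and a fold enrichment of 11. It was followed by chr2:32199249-32199479 at 93.0, chr5:3246723-3246935 at 92.6 and chr16:53178553-53178763 at 90.7. None of the 4 had a p63 peak at a later stage, and neither did 90.5% of all 839 Sox3-only sites. The sites on chromosomes 12 and 16 had a Sox3 peak in all 5 later Sox3 lists, that on chromosome 2 in 2 of them, and that on chromosome 5 in none.

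Some shared sites were strong for a single factor. At chr23:35790365-35791215 p63 stood at percentile 99.9 in both replicates, with 126 and 129 tags, and Sox3 at 3.25 with 10 tags, 142 bp and 140 bp from the p63 summits. At chr1:49175345-49175873 p63 stood at 99.7 and 99.3 and Sox3 at 3.88. In the other direction, chr11:36220112-36220405 had Sox3 at percentile 97.4 and p63 at 1.13 and 21.7, and chr18:44525731-44526058 had Sox3 at 92.6 and p63 at 14.8 and 11.9. The 2 p63-led sites had a peak in all 9 later lists. The 2 Sox3-led sites had a peak in all 5 later Sox3 lists and in no later p63 list. Of all shared sites, 40.6% had a peak in no later p63 list, against 46.2% of p63-only sites.

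Shared sites lay nearer to other p63 sites than p63-only sites did. The nearest p63-only site was a median of 11.1 kb from a shared site and 14.5 kb from another p63-only site. The nearest p63 neighbour was itself shared for 21.2% of shared sites (20.0 to 22.4%) and for 17.4% of p63-only sites (16.9 to 17.9%). For neighbours within 2 kb these shares were 23.0% (20.0 to 26.3%) and 19.3% (17.9 to 20.8%), with overlapping intervals. For neighbours from 2 to 10 kb away they were 22.9% (20.9 to 25.1%) and 19.6% (18.7 to 20.6%). Between 10 and 50 kb they were 20.3% (18.4 to 22.4%) and 16.1% (15.3 to 16.9%). Beyond 50 kb they were 13.5% and 14.0%, again with overlapping intervals. Sox3-only sites lay a median of 437 kb from each other, centre to centre. The nearest Sox3-only site was 515 kb from p63-only and 495 kb from shared sites. From Sox3-only sites the nearest p63-only site was 16.3 kb away. Measured between edges, the nearest p63 peak of either list was a median of 4.75 kb away, and 148 of 834 (17.7%) lay within 500 bp of such a peak. These distances depend on the number of sites or peaks searched.

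Within 10 kb of another shared site lay 20.1% of shared sites on chromosomes 1 to 25. Of p63-only sites 12.4%, and of Sox3-only sites 10.7%, lay within 10 kb of a shared site. In the larger p63-only class, 39.6% of sites lay within 10 kb of another site of that class. The runs of shared sites with gaps of at most 10 kb were mostly short, with 305 pairs, 53 runs of 3 and 19 of 4. The longest held 10 sites over 50.1 kb on chromosome 10, from 16831114 to 16881236, and the next longest held 6. In the run of 10 the median summit pileup was 82.5, 91 and 46 tags in p63 replicates 1 and 2 and Sox3, against class medians of 25, 31 and 14 tags. The local background was raised as well, with medians of 10.8, 9.89 and 4.43 tags, and the median fold enrichment of 6.89, 7.39 and 8.53 was near that of the class. Of the 10 sites, 8 had a peak in all 9 later lists.

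Shared and p63-only sites were spread over all chromosomes in similar proportions. The share of p63 sites with Sox3 ran from 14.6% on chromosome 9 to 21.9% on chromosome 22, and the intervals of 22 of the 25 chromosomes held the common value of 17.6%. Chromosome 4 had the fewest p63 sites per Mb, 9.66 against a median of 18.4 over chromosomes, and the highest share of Sox3-only sites among its Sox3 sites, 21.7% (16.0 to 28.3%). The lowest such share was 8.81% (5.46 to 13.3%) on chromosome 20. Neither interval held the 13.9% of all Sox3 sites. The stretches of 10 Mb from 30 to 70 Mb on this chromosome held 10 to 22 p63-only sites each, against at least 136 in each of the first 3. Chromosome 23 had the most p63 sites per Mb, 24.3. Outside chromosomes 1 to 25 lay 391 p63-only, 86 shared and 17 Sox3-only sites.

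The classes were then followed into the 9 later lists, which their definition did not use. Of all gastrula p63 sites, 30.5% and 46.7% had a p63 peak in the lists of 24 hpf, and 23.6% and 17.4% in those of 36 hpf. For Sox3 the background shares were 63.9% at 24 hpf, 41.5% and 32% in WT embryos at 36 hpf, and 56.2% and 53% in tp63 -/- embryos at 36 hpf. The lists differ in length, from 9538 peaks in p63 36 hpf replicate 2 to 81578 in Sox3 tp63 -/- replicate 1, so shares were compared between classes within a list and not between lists.

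Shared sites had a later Sox3 peak far more often than p63-only sites in each of the 5 later Sox3 lists. At 24 hpf the shares were 91.4% of shared and 58.0% of p63-only sites. At 36 hpf in WT embryos they were 77.3% against 33.8% in replicate 1 and 68.1% against 24.3% in replicate 2. In tp63 -/- embryos they were 89.1% against 49.1% and 88.1% against 45.5%, in lists of 81578 and 59786 peaks as compared with 51504 and 29082 in WT embryos. The mean difference was 40.6 percentage points, higher at shared sites in 5 of 5 libraries (exact two-sided sign-flip permutation test over libraries, p = 0.063, the smallest that 5 libraries allow). Without the mutant libraries it was 40.2 points (sign-flip permutation test, p = 0.25, the smallest that 3 libraries allow). These libraries differ in stage and genotype. The test leaves out the error of the classes, which rest on a single gastrula Sox3 list.

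Sox3-only sites had a later Sox3 peak less often than shared sites in the same 5 lists. A later Sox3 peak was found at 49.3% of them at 24 hpf, at 38.7% and 29.0% in WT embryos and at 52.0% and 46.0% in tp63 -/- embryos at 36 hpf. At p63-only sites the share at 24 hpf was higher than this, 58.0%. At 36 hpf p63-only sites were lower than Sox3-only sites, with 33.8% and 24.3% in WT and 49.1% and 45.5% in tp63 -/- embryos. Shared sites exceeded Sox3-only sites by a mean of 39.8 percentage points, in 5 of 5 libraries (exact two-sided sign-flip permutation test, p = 0.063, again the smallest possible). Without the mutant libraries the mean was 39.9 points (sign-flip permutation test, p = 0.25, the smallest that 3 libraries allow). Over all 5 libraries the difference was 19.3 points with lists of equal length and 19.1 points among peaks with a −log10 q of at least 10. Sox3-only peaks were weaker, as given above, and the part of peak strength in this difference was not tested. Among shared sites the later share followed Sox3 percentile: from the weakest to the strongest of 4 bins it went from 90.3% to 93.2% at 24 hpf, and in WT embryos at 36 hpf from 72.1% to 86.2% in replicate 1 and from 57.0% to 81.0% in replicate 2.

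**Figure D4:**
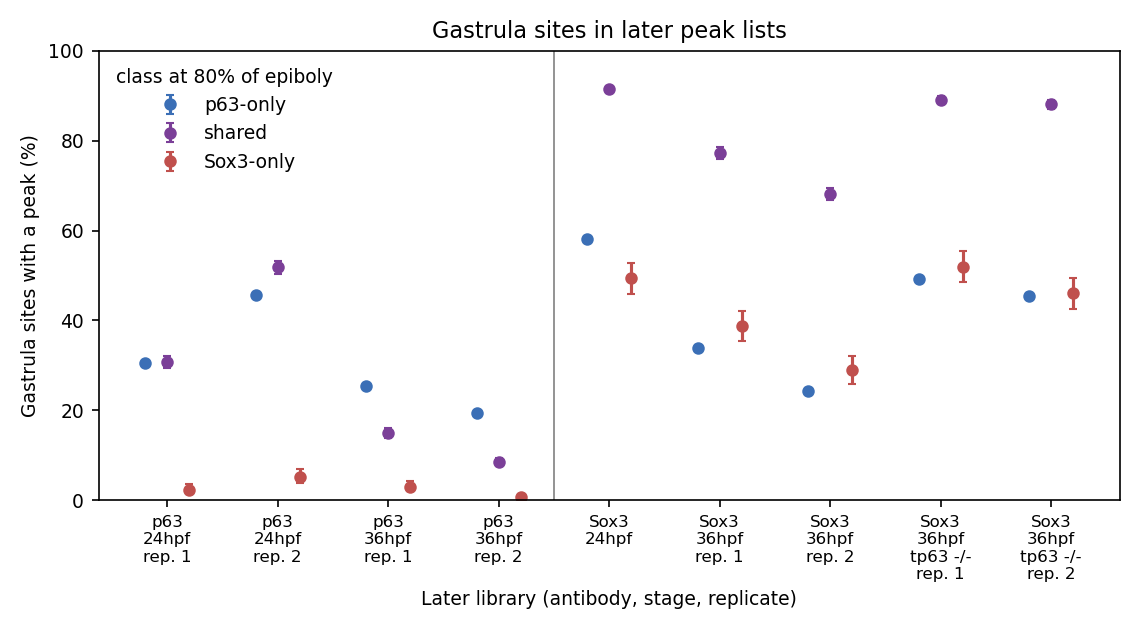
Share of gastrula sites of each class with a peak in each later list (%, vertical axis), with p63 libraries left and Sox3 libraries right of the line, and 95% Clopper-Pearson intervals, some smaller than the points. Shared sites lie above both other classes in all 5 Sox3 libraries, and below p63-only sites in both p63 libraries of 36 hpf (14.9% and 8.50% against 25.5% and 19.3%).

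For later p63 binding, shared sites had fewer peaks than p63-only sites at 36 hpf, while at 24 hpf the order was not stable. At 24 hpf, 30.7% of shared and 30.4% of p63-only sites had a p63 peak in replicate 1, and 51.8% and 45.6% in replicate 2. The intervals overlapped in replicate 1 (29.3 to 32.1% and 29.8 to 31.1%). At 36 hpf the shares were 14.9% of shared and 25.5% of p63-only sites in replicate 1, and 8.50% and 19.3% in replicate 2. By the study's reporting summary, both p63 libraries of 36 hpf had fewer uniquely mapped reads than those of 24 hpf. Replicate 2 of 36 hpf had the fewest of the series, and the part of depth in these shares was not tested. The libraries differ in stage, so a mean over them describes neither stage alone. The mean difference over the 4 libraries was -3.72 percentage points, negative in 2 of 4 (exact two-sided sign-flip permutation test, p = 0.5, where 4 libraries cannot go below 0.13). Its sign depended on both gastrula p63 lists: with p63 sites taken from replicate 2 alone it was 4.16 points, and from replicate 1 alone 3.53 points. Shared sites were higher in 1 of 4 libraries on chromosomes 1 to 25, with either stricter overlap and with a fold enrichment of at least 5, and in 0 of 4 with a −log10 q of at least 10 or with lists of equal length. Sox3-only sites had a later p63 peak in 0.596% to 5.13% of cases.

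Since shared sites ranked higher for p63, the classes were also compared at like p63 rank. Within 10 equal bins of mean p63 percentile, the differences averaged -5.02 and -0.88 percentage points at 24 hpf and -12.8 and -12.4 at 36 hpf. In the highest of 5 bins, a p63 peak at 36 hpf was present at 64.9% of p63-only and 33.4% of shared sites in replicate 1, and at 55.3% and 24.3% in replicate 2. At 24 hpf the same bin held 69.1% against 58.3% and 81.2% against 74.5%. In the lowest bin the shares at 36 hpf were 8.90% and 6.95% in replicate 1, and 5.42% and 1.74% in replicate 2. In percentage points, the gap between classes was thus widest among the strongest p63 sites. As a ratio it was larger in bin 4 of 5 than in the highest bin. There the shares at 36 hpf were 29.2% of p63-only and 10.7% of shared sites in replicate 1, and 21.6% and 3.88% in replicate 2.

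**Figure D5:**
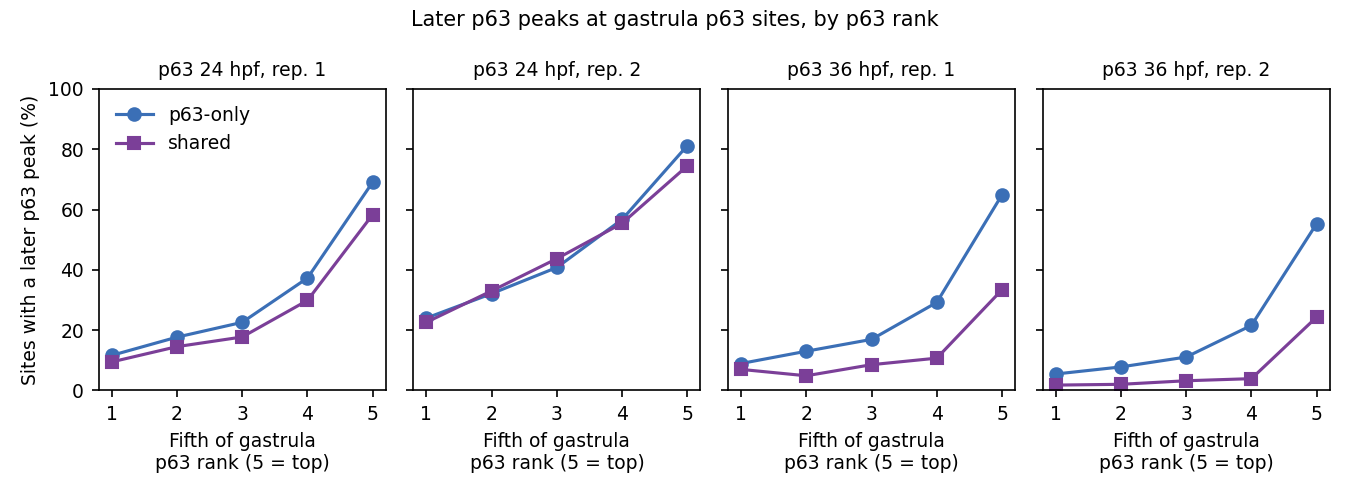
Share of gastrula p63 sites with a p63 peak in each later p63 list (%, vertical axis) by 5 equal bins of mean gastrula p63 percentile (horizontal axis, 5 is the strongest), for p63-only (circles) and shared sites (squares). At 36 hpf p63-only sites lie above shared sites in every bin, and in the strongest bin they reach 64.9% and 55.3% against 33.4% and 24.3%.

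Combining the later lists, p63 peaks in all 4 later p63 lists were found at 14.3% of p63-only sites (13.8 to 14.7%) and at 5.96% of shared sites (5.27 to 6.70%). A p63 peak in both lists of 24 hpf was found at 26.3% of p63-only and 25.9% of shared sites. Sites with p63 in all 4 and no Sox3 peak in the 3 later WT lists numbered 1508 (7.38%) among p63-only sites and 9 (0.206%) among shared sites. The opposite pattern, no later p63 peak and Sox3 in all 3 later WT lists, was found at 8.08% of p63-only sites (7.71 to 8.46%), 21.7% of shared sites (20.5 to 22.9%) and 20.3% of Sox3-only sites (17.6 to 23.1%). Each pattern combines single shares that already differ between the classes. No Sox3 peak in the 3 later WT lists was found at 38.9% of p63-only and 7.12% of shared sites. Sox3 in all 3 was found at 20.6% of p63-only, 64.4% of shared and 24.6% of Sox3-only sites. The part of these single shares in the patterns was not tested. No peak of either factor in any later list was seen at 16.3% of p63-only, 3.78% of shared and 36.4% of Sox3-only sites.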

How the data were processed

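ChIPmentation peak lists of 12 zebrafish libraries were used, 3 of them from 80% of epiboly. According to the submitters' processing notes and the study's methods, Bowtie aligned the reads to GRCz10 (danRer10). MACS2 then called narrow peaks separately for each library, with a false discovery rate limit of 0.001, a genome size of 1.5 Gb and no control library in the stated command. Tool versions and the handling of duplicates are not given in the sources used here. Fold enrichment as deposited divides the summit pileup by the background around it (a ratio, with 1 added to both). The authors also deposited −log10 p and −log10 q of each summit, which increase with sequencing depth, and a score that restates −log10 q and was not used. Values were not scaled across libraries and were compared within lists only.

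Lists were merged into sites (Python 3.11.15, numpy 2.4.6, pandas 2.3.3, scipy 1.17.1, matplotlib 3.10.9) and classed by overlap of at least 1 bp. Where a list had several peaks in a site, its strongest was used. Percentiles rank −log10 q within a list, with all peaks kept. Summit pileup and local background were recovered from fold enrichment and −log10 p by the Poisson formula, and the tag number from the lowest background and the genome size. The code was tested on simulated data. Named sites were the 4 with the highest mean percentile of each class on chromosomes 1 to 25, the 2 shared sites with the widest rank gap each way whose stronger factor was in the top 10%, and the longest run of shared sites with gaps up to 10 kb. The classes, lists and tests were chosen with earlier results of these data known. Alternatives varied the overlap, the thresholds, the list length, the sequences, how sites are built and the replicates. With no replicate of Sox3 at this stage, the gastrula values have no test. Later libraries were compared by sign-flip permutation over libraries. Nearby genes, motifs and sequences were not analysed here, since no GRCz10 genome or annotation was used.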

Additional observations from a re-analysis of the deposited data

Results flagged for a closer look

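The difference between shared and p63-only sites in the share with a later p63 peak was above 0 in both libraries of 24 hpf and below 0 in both libraries of 36 hpf. It was 0.256 and 6.22 percentage points at 24 hpf (replicates 1 and 2) and -10.6 and -10.8 percentage points at 36 hpf. The means were 3.24 ± 4.22 and -10.7 ± 0.138 (SD, n = 2 each), 13.9 points apart (exact two-sided permutation test of 2 libraries against 2, p = 0.333, the smallest this design allows), so the design cannot place the difference between stages past a threshold. At like p63 rank all 4 differences were negative, with means of -2.95 ± 2.93 at 24 hpf and -12.6 ± 0.294 at 36 hpf, so the opposite sign did not hold there. The value of 0.256 lies within counting error, with overlapping intervals (29.3 to 32.1% and 29.8 to 31.1%). Shared sites were higher in 1 of 4 libraries with 50% overlap, with summits within 100 bp, with a fold enrichment of at least 5, on chromosomes 1 to 25 and with a later peak over the gastrula summit, and in 0 of 4 with a −log10 q of at least 10 and with lists of equal length. The lists of 36 hpf are also shorter than the longer list of 24 hpf, with 16993 and 9538 peaks against 14707 and 25659. Both libraries of 36 hpf had fewer uniquely mapped reads than those of 24 hpf by the study's reporting summary. The part of depth in the stage difference was not tested.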

How the results depend on the processing

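Of 110 alternative values, 66 were counted as unchanged, 41 as moved and 3 as changed in sign. Gastrula values were counted as unchanged within the spread taken for the value reported, or within 1.5 times for a count. Differences in later libraries were counted as unchanged wherever their sign held, also far outside the spread of the libraries. The later Sox3 difference against Sox3-only sites was 39.8 percentage points, from 37.2 to 42.1 over libraries, and was still counted as unchanged at 19.1. Requiring that each peak cover 50% of the other left 1685 Sox3-only sites, 16.6% of p63 sites with Sox3, 57.5% of Sox3 sites with both p63 lists, a p63 percentile difference (shared minus p63-only) of 9.20 and a summit distance of 41.5 bp. With summits within 100 bp these were 1390 Sox3-only sites, 16.0%, 59.2% and 39.5 bp, and the Sox3 percentile difference (shared minus Sox3-only) was 29.1. With a fold enrichment of at least 5 there were 1471 Sox3-only sites, 18.9% and 56.7%, with percentile differences of 7.94 (p63) and 26.5 (Sox3) and 45.8 bp. With −log10 q of at least 10 there were 9712 p63-only, 1339 shared and 323 Sox3-only sites, 12.1% and 64.2%, with percentile differences of 1.99 (p63) and 9.64 (Sox3) and 41 bp. With lists of equal length there were 3574 p63-only, 1012 shared and 4233 Sox3-only sites, 22.1%, 16.8% and 44.0 bp, and the p63 percentile difference changed sign to -1.52. The cause was not tested. Leaving out one p63 replicate gave 32007 to 37696 p63-only and 1115 to 1446 Sox3-only sites, 11.5 to 12.5% of p63 sites with Sox3, 76.0 to 81.5% of Sox3 sites with p63, percentile differences of 25.5 to 29.6 (p63) and 26.1 to 26.9 (Sox3), and a later p63 difference of 3.53 to 4.16 percentage points, opposite in sign to that with both lists. A site then needs 1 p63 list in place of 2. The regions with 1 p63 list and no Sox3 peak had median p63 percentiles of 27.8 and 29.2 (replicates 1 and 2). Their part in these changes was not tested.

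The later Sox3 differences kept their sign under each alternative run, at 35.8 to 46.8 percentage points against p63-only and 19.1 to 39.9 against Sox3-only sites. Alternatives added after seeing the data were the comparison within bins of p63 rank, the omission of the mutant libraries, a later peak over the gastrula summit in place of anywhere in the site, and the omission of sites with a peak in all later lists. None of these changed the sign of a value averaged over libraries, but within bins of p63 rank both differences in later p63 at 24 hpf became negative, and with a later peak over the summit 1 of 4 libraries was positive in place of 2. The window for motifs and the distance to genes were not run. No paired analysis was possible because the gastrula Sox3 library has no replicate and carries no replicate number. The depth of that library, estimated from its list at 2.75 M tags (megatags), may limit which p63 sites could be called shared, which was not tested.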
